A study of Mus musculus with 8 samples.

Results

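Small nucleolar RNAs (snoRNAs) and small Cajal body RNAs (scaRNAs) are short noncoding RNAs that guide chemical modification of other RNAs. Box C/D snoRNAs (symbols Snord) assemble with fibrillarin and direct methylation of ribose, and box H/ACA snoRNAs (Snora) assemble with dyskerin and direct the change of uridine to pseudouridine, both mainly on ribosomal RNA. ScaRNAs (Scarna) carry the same boxes and act on spliceosomal RNAs in Cajal bodies. A few members, such as U3 (Snord3), U8 (Snord118), U14 (Snord14), U22 (Snord22) and U17 (Snora73), are known for their part in the cleavage and maturation of the ribosomal RNA precursor. Most mammalian snoRNAs are cut out of introns of a host gene, often one that encodes a ribosomal protein or a translation factor.

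The genes described here are the rows of 1 deposited RNA table whose symbol begins with Snora, Snord or Scarna and a digit, and whose log2 value is above 0 in at least 1 of 8 libraries. Members were thus chosen by their measured level, in whichever library it was highest. This rule kept 104 of 128 such rows and of 27179 rows in all: 60 C/D, 35 H/ACA and 9 scaRNA genes. The libraries hold total RNA of 4 mouse organs (brain, heart, kidney and liver), each either flash frozen or kept as formalin-fixed, paraffin-embedded tissue (FFPE, fixed in 10% formalin), with 1 library for each of the 8 combinations. Strain, genotype, age and number of animals are not given in the labels. RNA was taken up in Trizol after deparaffinisation of the FFPE pieces, and tissue was sheared by ultrasound in a PIXUL plate instrument. No combination has a second library, so a difference between FFPE and frozen is judged against its disagreement between the 4 organs, and a difference between organs against the 2 preservations of each.

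Values are given as CPM, the number of reads per 1000000 after the scaling that the deposited values carry, and differences are on the log2 scale of the deposited values, in which 0.5 read was added. Where 4 values are given in a row, they follow the order brain, heart, kidney, liver. Whole reads could be read back from all values of every library. The libraries held 10180972 to 20526813 such reads, and the members took 0.124% to 0.346% of them, or 20877 to 54057 reads. The least abundant members are limited by counting, since 3 reads correspond to 0.119 to 0.292 CPM, depending on the library. In each organ, all 5 marker genes of that organ were higher in its 2 libraries than in the other 6. The read share of Rn45s, the ribosomal RNA precursor, moved with preservation: from frozen to FFPE it went from 10.3% to 2.71% in brain, from 12.9% to 10.1% in heart, from 21.6% to 1.45% in kidney and from 17.9% to 2.59% in liver. Its part in the differences below was not tested.

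All 104 members were matched to a small RNA gene of the GENCODE annotation, build GRCm38 (mm10). The C/D genes had a median length of 82 nt (65 to 238), the H/ACA genes 132 nt (127 to 205) and the scaRNA genes 140 nt (70 to 414). Of all members, 96 lay inside a longer gene on the same strand, 57 of them in an intron of every transcript that spans them and 39 overlapping an exon of at least 1 such transcript. These were 74 host genes, of which ribosomal protein genes or Rack1 held 30 members and genes that do not code for protein held 21.

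The sequences shown are those that the largest differences turn on. Capitals mark TGATGA, the consensus of the C box, within the first 30 bases and CTGA, the D box, within the last 15 bases of C/D genes, and ACA within the last 9 bases of H/ACA genes. On the strand shown, 39 of 60 C/D members held TGATGA and 57 held CTGA in these windows, against 22.0% and 30.9% of 1558 GENCODE snoRNA and scaRNA transcripts. ACA stood in its window in 33 of 35 H/ACA members, in 7 of 60 C/D members and in 47.8% of the GENCODE transcripts. Snord22 and Snora81 lack 1 of these strings.
Snora75: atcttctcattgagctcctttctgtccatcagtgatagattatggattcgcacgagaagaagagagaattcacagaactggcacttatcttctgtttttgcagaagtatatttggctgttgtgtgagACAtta
Snora30: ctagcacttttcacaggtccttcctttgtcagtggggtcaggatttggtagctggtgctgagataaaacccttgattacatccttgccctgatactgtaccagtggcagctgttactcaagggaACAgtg
Snora81: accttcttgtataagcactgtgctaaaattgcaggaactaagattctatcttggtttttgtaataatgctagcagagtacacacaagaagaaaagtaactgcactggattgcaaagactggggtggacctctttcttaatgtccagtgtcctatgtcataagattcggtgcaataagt
Snora35: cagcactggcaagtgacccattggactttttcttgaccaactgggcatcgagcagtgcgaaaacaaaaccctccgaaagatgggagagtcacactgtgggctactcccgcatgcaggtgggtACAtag
Snord14d: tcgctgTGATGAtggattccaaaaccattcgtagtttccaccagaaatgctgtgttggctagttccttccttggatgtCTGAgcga
Snord14e: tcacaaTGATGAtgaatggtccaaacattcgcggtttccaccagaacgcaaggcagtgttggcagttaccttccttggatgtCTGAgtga
Snord22: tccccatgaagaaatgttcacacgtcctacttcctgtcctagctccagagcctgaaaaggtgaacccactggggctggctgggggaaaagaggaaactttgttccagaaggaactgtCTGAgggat
Snord32a: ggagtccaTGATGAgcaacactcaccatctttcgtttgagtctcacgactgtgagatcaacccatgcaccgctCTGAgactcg
Snord64: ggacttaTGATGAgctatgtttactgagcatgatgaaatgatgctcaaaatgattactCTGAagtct
Snord104: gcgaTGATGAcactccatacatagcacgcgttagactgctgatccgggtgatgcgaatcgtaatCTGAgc

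On GRCm38, Snora75 lies at chr1:86351169-86351301 (-) in Ncl, the gene of nucleolin, and Snora30 at chr7:127527874-127528003 (+) in an intron of Srcap. Snora81 lies at chr16:23110756-23110933 (+) in Eif4a2, a translation initiation factor gene, and Snora35 at chrX:146994381-146994508 (+) in an intron of Htr2c, a serotonin receptor gene. Snord14d, at chr9:40803995-40804080 (+), and Snord14e, at chr9:40804748-40804837 (+), share the host Hspa8, a heat shock cognate gene. Snord22, at chr19:8725866-8725991 (+), belongs to Snhg1, a spliced noncoding host. Snord32a, at chr7:45127382-45127464 (-), lies in Rpl13a, a ribosomal protein gene. Snord64, at chr7:59978808-59978874 (-), lies in the imprinted Snrpn to Ube3a region, and Snord104, at chr11:106500993-106501062 (+), has no host on its strand in this annotation. The coordinates and sequences are those of GENCODE transcripts. The RefSeq model of a gene was as long as the GENCODE model for 14 members and under 70 percent of it for 13, and which annotation was counted over the labels do not say.

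The most abundant C/D genes by mean log2 value were Snord22, Snord15b, Snord17, Snord104, Snord118 and Snord3a. Per kilobase of the GENCODE model, Snord22 reached a mean of 2203 CPM over the 8 libraries, Snord104 1803, Snord15b 784, Snord118 700, Snord17 402 and Snord3a 321. Snora81 led the H/ACA genes with 1411 CPM per kilobase, followed by Snora28 with 548, Snora73b with 480, Snora74a with 354, Snora7a with 339 and Snora73a with 222. On these GENCODE models the scaRNAs were lower: Scarna13 had 78.8, Scarna6 41.5 and Scarna2 27.6 CPM per kilobase. The model of Scarna2 is 414 nt in GENCODE and 61 nt in RefSeq, so its level per kilobase is uncertain. Levels spanned a wide range, since 66 members were above 0 (log2) in all 8 libraries and 2 in a single library.

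At the threshold, the highest log2 value was 0.26 for Snord123, 0.56 for Snord61 and 0.57 for Snord33, the members nearest to it. The closest rows outside were Snord3b4 and Snord92, each with a highest value of -0.10, and Snord14a with -0.20. Of the 24 rows left out, 6 had no read in any library. Among the imprinted brain clusters, only Snord64 is a member: Snord116l1 and Snord116l2 had 1 read each in all libraries together. Members passed the rule through whichever library was highest, and 4 were above 0 in FFPE libraries only and 1 in frozen libraries only, so for these 5 a difference between preservations was in part set by the rule.

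The first comparison asked how the small RNAs recovered from FFPE tissue relate to those from frozen tissue. H/ACA genes were higher in FFPE brain, kidney and liver. On the scaling of the deposited values, C/D genes as a class were higher in FFPE in brain only. Summed over the 35 H/ACA genes, the frozen libraries had 279, 1363, 571 and 819 CPM, and the FFPE libraries had 716, 1256, 1401 and 1692 CPM. The H/ACA sum was thus 2.56, 2.45 and 2.07 times as high in FFPE as in frozen brain, kidney and liver, and 0.921 times as high in heart, where it was 1.53 times as high as a share of all reads. The 60 C/D genes summed to 489, 1929, 1113 and 2238 CPM in the frozen libraries and to 580, 1354, 887 and 1942 CPM in the FFPE libraries. The C/D sum was higher in FFPE in brain and lower in the other 3 organs, but as a share of all reads it was 1.06 to 1.39 times as high in FFPE in all 4. ScaRNAs summed to 40.6 to 77.6 CPM in frozen and 66.2 to 99.9 CPM in FFPE libraries and were higher in FFPE in each organ, by 1.11-fold in brain, 1.29-fold in heart, 1.67-fold in kidney and 1.22-fold in liver.

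**Figure D1:**
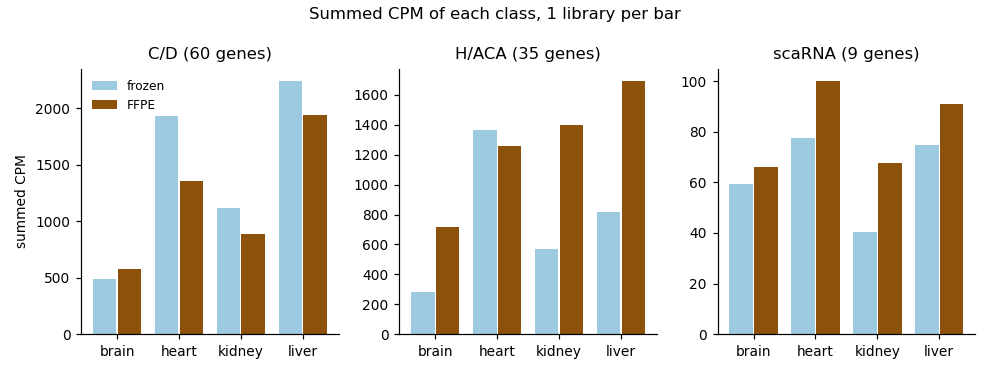
Summed CPM (vertical axis, starting at 0, with a different range in each panel) of the C/D, H/ACA and scaRNA genes in brain, heart, kidney and liver, with 1 library per bar, frozen in blue and FFPE in brown. The H/ACA bars of FFPE brain, kidney and liver stand more than 2-fold above the frozen bars, while the C/D bars of FFPE heart, kidney and liver stand below them (as a share of all reads, 1.06 to 1.24 times as high).

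The ratio of H/ACA to C/D reads within a library does not depend on how libraries are scaled. It was 0.571, 0.707, 0.514 and 0.366 in the frozen libraries, where C/D reads outnumbered H/ACA reads throughout. In FFPE it was 1.23, 0.927, 1.58 and 0.871, above the frozen value in 4 of 4 organs and above 1 in brain and kidney. On the log2 scale the ratio was higher in FFPE by 1.11 in brain, 0.39 in heart, 1.62 in kidney and 1.25 in liver, a mean of 1.09 ± 0.51 (SD, n = 4 organs). The most abundant gene of each class carried part of it: Snord22 made up 19.9% to 40.5% of C/D reads in frozen and 6.60% to 19.6% in FFPE libraries, and Snora81 14.6% to 23.0% and 22.0% to 33.0% of H/ACA reads. Without these 2 genes the mean difference was 0.52 ± 0.47 (SD, n = 4 organs), and heart had -0.13. No test was made of the ratio, which is a score over genes chosen with their values known.

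Gene by gene, the median H/ACA difference (FFPE minus frozen, log2) was 1.66 in brain, 0.20 in heart, 1.43 in kidney and 1.01 in liver. The C/D medians were 0.68, -0.09, -0.22 and -0.27, and the medians over all 15819 genes tested lay between -0.04 and 0.07. In brain, 27 of 35 H/ACA and 24 of 60 C/D genes were at least 2-fold higher in FFPE, against 8.8% of all genes tested. In kidney these were 21 of 35 and 12 of 60 (13.3% of all genes), in liver 18 of 35 and 9 of 60 (10.1%), and in heart 1 of 35 and 14 of 60 (13.7%). At least 2-fold lower in FFPE were 0 of 35 H/ACA and 1 of 60 C/D genes in brain (5.81% of all genes), 2 and 12 in heart (5.54%), 1 and 15 in kidney (3.89%) and 0 and 12 in liver (4.82%). Among H/ACA genes, heart thus had the fewest that were higher on the scaling of the deposited values. As a share of all reads the H/ACA medians were 1.89, 0.93, 2.07 and 1.30, and the 2-fold counts were not repeated on it. FFPE was above frozen in all 4 organs for 16 of 35 H/ACA and 13 of 60 C/D genes (14.6% of all genes), and below in all 4 for 2 and 7 (14.9%). The class contrast also held among genes with a mean log2 value above 2: 27 H/ACA genes had medians of 1.66, 0.20, 1.43 and 1.01 in brain, heart, kidney and liver, and 35 C/D genes 0.67, -0.16, -0.23 and -0.28.

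**Figure D2:**
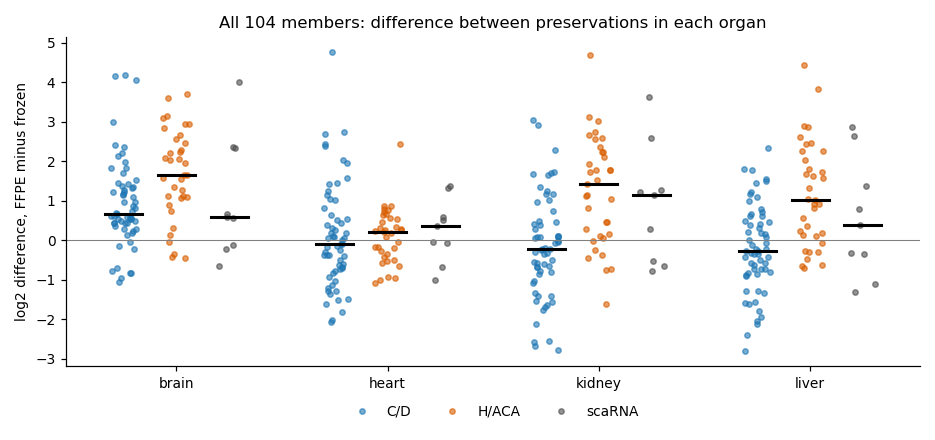
Difference between FFPE and frozen (vertical axis, log2) for each of 104 members in each organ, C/D in blue, H/ACA in orange and scaRNA in grey, with horizontal bars at the class medians. The H/ACA medians lie at 1.66, 1.43 and 1.01 in brain, kidney and liver and at 0.20 in heart, and the C/D medians between -0.27 and 0.68 on the scaling of the deposited values.

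Of the 104 members, 102 entered the fit, and 18 were called higher and 4 lower in FFPE (limma, adjusted p under 0.05 over all genes). Over all genes tested, 1.2% were called higher and 2.18% lower. By class, 12 of 35 H/ACA genes were higher and 1 lower, 3 of 58 C/D genes were higher and 3 lower, and 3 of 9 scaRNA genes were higher. All 22 moved in the same direction in 4 of 4 organs, which the test favours, since it judges a difference against its disagreement between organs. The calls depend on which organs enter. No member was called higher without brain, without kidney or without liver, when at most 1 gene of all tested was called higher. Without heart 25 members were called higher, and 108 of all 15819 genes. In the fits without brain, kidney or liver, 30, 29 and 33 members had an unadjusted p under 0.05 and were higher in FFPE. The fit of all organs gave 35. The share of all genes at that unadjusted threshold was not counted, so these numbers do not compare members with other genes. Taken as a share of all reads, without the scaling of the deposited values, 44 members were called higher and 2 lower. Of all 15819 genes, 3652 were then called higher and 73 lower, and the median of all genes tested moved from 0.07 to 0.54. Relative to that median the members' median difference was 0.37. It is the same under either scaling by construction, since a scaling factor moves all genes of a library alike.

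Among the H/ACA genes, Snora75 rose most. Its levels were 0.793, 8.09, 1.46 and 1.63 CPM in the frozen libraries and 9.83, 12.9, 38.3 and 36.7 CPM in FFPE. Every FFPE library lay above every frozen library, and the frozen heart was the highest of the frozen. The difference was 3.35 (SE 0.58, limma adjusted p = 0.027), with heart lowest at 0.67 and kidney highest at 4.68. Snord82, the C/D gene of the same host Ncl, differed by 0.43 (SE 0.41, limma adjusted p = 0.58), and Ncl itself by -0.18 (limma adjusted p = 0.47).

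Snora30 had 3.21, 20.4, 5.27 and 2.88 CPM in the frozen libraries and 28.8, 35.2, 46.0 and 41.5 CPM in the FFPE libraries. All 4 FFPE values lay above the highest frozen value, and the FFPE libraries were closer to each other than the frozen ones. The difference was 2.72 (SE 0.42, limma adjusted p = 0.020). Snora16a went from 4.44, 47.8, 20.0 and 19.3 CPM to 38.4, 74.8, 133 and 105 CPM, a difference of 2.23 (SE 0.34, limma adjusted p = 0.020), and the groups overlapped only through frozen heart. Snora20 differed by 2.11 and Snora69 by 1.98, and the remaining called H/ACA genes, Snora3, Snora17, Snora31, Snora61, Snora2b, Snora68 and Snora74a, by 0.94 to 1.95.

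Snora81, the most abundant H/ACA gene, did not pass the test. It had 45.0, 313, 90.0 and 120 CPM in the frozen libraries and 208, 277, 462 and 495 CPM in FFPE. FFPE values were over 2-fold higher in 3 organs, and heart went the other way. The difference was 1.61 (SE 0.37, limma adjusted p = 0.057).

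The H/ACA gene called lower was Snora73b, a copy of U17. It had 60.6, 180, 99.5 and 152 CPM in the frozen libraries and 45.2, 92.4, 59.5 and 98.0 CPM in FFPE, lower in each organ. The difference was -0.69 (SE 0.12, limma adjusted p = 0.026). Snora73a, from the same host Snhg3 and 96.6% identical in sequence, differed by -0.11 (limma adjusted p = 0.69). Snora34 was also lower in all 4 organs, with a difference of -0.40 (limma adjusted p = 0.14), and Snora15 had -0.76 (limma adjusted p = 0.18) and was higher in FFPE in brain. How reads shared by copies such as Snora73a and Snora73b were assigned is not stated, so the split between them is uncertain.

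**Figure D3:**
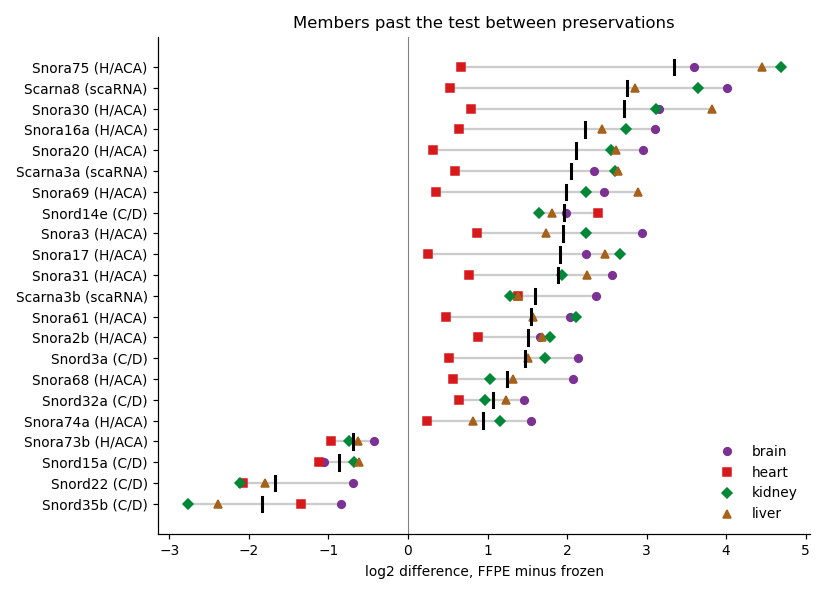
The 22 members past the test between preservations, with the difference between FFPE and frozen (horizontal axis, log2) in brain, heart, kidney and liver as coloured symbols and the fitted mean as a black bar. On the scaling of the deposited values, heart has the smallest rise in 16 of the 18 members that rose. Snord14e is the C/D gene with the largest rise, 1.96.

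Of the C/D genes, Snord22 fell most among the abundant ones. U22 is needed for maturation of the small subunit ribosomal RNA. It had 184, 782, 311 and 445 CPM in the frozen libraries. In FFPE it had 186 CPM in heart, 72.0 in kidney and 128 in liver, and brain differed from its frozen library by -0.70 on the log2 scale. In each organ the FFPE value was lower, and the 2 groups met only at FFPE heart against frozen brain. The difference was -1.67 (SE 0.22, limma adjusted p = 0.014), while its host Snhg1 differed by 0.04 (limma adjusted p = 0.96).

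Snord35b, a methylation guide, had 1.43, 4.87, 6.91 and 6.62 CPM in the frozen libraries and 0.782, 1.90, 0.997 and 1.24 CPM in the FFPE libraries. It was lower in FFPE in all organs, and frozen brain lay within the FFPE range. The difference was -1.83 (SE 0.39, limma adjusted p = 0.044). Snord15a, of the U15 family, fell by 0.87 (SE 0.14, limma adjusted p = 0.023), and its neighbour Snord15b in the same host Rps3 had a difference of -0.25 (limma adjusted p = 0.39). Snord72, Snord49b, Snord111 and Snord68 had differences of -1.35, -1.34, -1.30 and -1.16 and did not pass the test.

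The 3 C/D genes that rose were Snord14e, Snord3a and Snord32a. Snord14e had 1.03, 5.36, 3.39 and 6.53 CPM in the frozen libraries and 4.13, 28.4, 10.7 and 23.0 CPM in FFPE. Its difference was alike in the 4 organs (1.99, 2.39, 1.65 and 1.81), with a mean of 1.96 (SE 0.20, limma adjusted p = 0.013). Snord3a, a U3 gene, rose by 1.47 (SE 0.23, limma adjusted p = 0.020), from 10.7, 98.9, 21.6 and 41.3 CPM to 47.2, 142, 71.6 and 117 CPM. It is among the 4 C/D genes longer than 150 nt, whose median differences were 3.10 in brain, 0.30 in heart, 1.44 in kidney and 0.64 in liver. Those 4 include the U3 copies Snord3b1 and Snord3b2, 99.5% identical to each other, whose reads cannot be assigned with certainty.

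Members of the same host differed in their behaviour. Snord14c, Snord14d and Snord14e are all U14 copies of Hspa8, and Snord14c and Snord14d are 97.7% identical to each other while each shares 79.6% of aligned positions with Snord14e. Snord14d had 9.16, 65.9, 65.4 and 61.7 CPM in the frozen libraries and 13.3, 55.4, 24.8 and 35.1 CPM in FFPE, lower in FFPE in 3 of 4 organs. Its difference was -0.48 (limma adjusted p = 0.34) and that of Snord14c -0.43 (limma adjusted p = 0.42), against 1.96 for Snord14e and -0.57 (limma adjusted p = 0.050, not under the threshold) for Hspa8. The differences between the copies were not tested.

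Rpl13a holds Snord32a, Snord33, Snord34 and Snord35a, a group linked to the cellular response to lipid stress. Snord32a had 8.05, 41.9, 35.2 and 60.0 CPM in the frozen libraries and 22.2, 65.2, 68.7 and 140 CPM in FFPE. It was higher in each organ and rose by 1.07 (SE 0.15, limma adjusted p = 0.014), although Rpl13a fell by 0.97 (limma adjusted p = 0.013). Snord34 differed by 1.04 (limma adjusted p = 0.086), Snord33 by 2.15 (limma adjusted p = 0.056, above 0 only in FFPE kidney and liver) and Snord35a by -0.78 (limma adjusted p = 0.20). Snhg12, a noncoding host, holds the H/ACA genes Snora16a and Snora61, which rose, Snora44 with 0.20 (limma adjusted p = 0.79) and the C/D gene Snord99 with 0.45 (limma adjusted p = 0.45). In Kansl2, Snora2b rose (by 0.88 in heart to 1.79 in kidney) and Snora34 had -0.40 (limma adjusted p = 0.14).

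Across members with a tested host, the differences between preservations were set beside those of the host genes. The hosts of 31 H/ACA genes had a median difference of -0.50 and the genes themselves 1.08, and 27 of 31 lay above their host. The hosts of 48 C/D genes had a median of -0.56 and the genes 0.05, with 35 of 48 above their host. The Pearson correlation between gene and host was 0.02 over the 31 H/ACA genes and -0.02 over the 48 C/D genes, given as a description since members share hosts and libraries. Within each class, Spearman's rho of the difference with length was -0.36 over 35 H/ACA and -0.06 over 58 C/D genes. With GC content it was -0.27 and 0.09. The classes themselves differ in length (medians of 132 and 82 nt), and the part of length in the contrast between them was not tested.

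**Figure D4:**
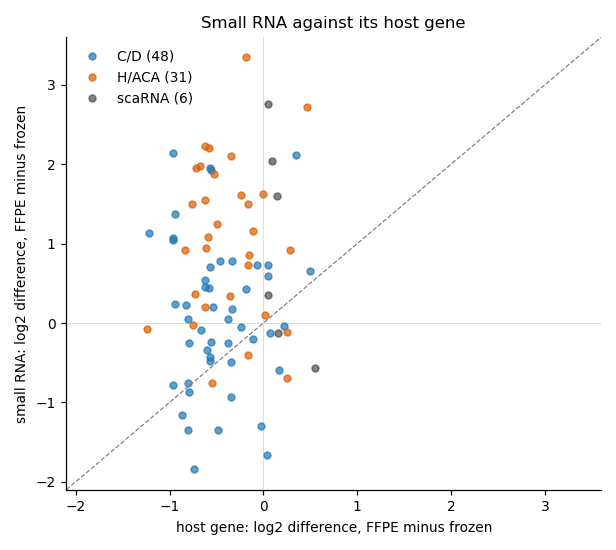
Difference between FFPE and frozen (log2) of 85 members on the vertical axis against that of their host gene on the horizontal axis, C/D in blue, H/ACA in orange and scaRNA in grey, with a dashed line where both are equal. Hosts lie mostly below 0, while 27 of 31 H/ACA genes lie above the line.

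The scaRNAs split into those that rose and those that did not. Scarna8 had 0.0793, 1.56, 0.234 and 0.384 CPM in the frozen libraries and 1.56, 2.27, 3.26 and 3.10 CPM in FFPE, a difference of 2.76 (SE 0.59, limma adjusted p = 0.047). Its frozen brain value lay below the level of 3 reads (0.119 CPM there), so this difference depends in part on the added 0.5 read. Scarna3a rose by 2.04 (SE 0.34, limma adjusted p = 0.025) and Scarna3b by 1.60 (SE 0.28, limma adjusted p = 0.027). The GENCODE models of these 3 are 131, 140 and 139 nt long. The other 6 did not pass the test: Scarna2, Scarna6, Scarna10 and Scarna13 (265 to 414 nt) had differences between -0.16 and 0.36, with limma adjusted p from 0.45 to 0.82, Scarna17 (79 nt) had 0.54 (limma adjusted p = 0.29) and Scarna9 (70 nt) -0.57 (limma adjusted p = 0.42). The RefSeq models of Scarna2 and Scarna10 are 61 and 71 nt, so their counted length is uncertain.

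Other small structured RNAs outside the snoRNA families moved in both directions. Of 13 tested, 2 rose and 2 fell. Rnu11, an RNA of the minor spliceosome, went from 34.4, 152, 34.1 and 16.9 CPM in the frozen libraries to 251, 199, 281 and 254 CPM in FFPE, a difference of 2.55 (SE 0.46, limma adjusted p = 0.031) that was smallest in heart, as for the H/ACA genes. Rnu5g rose by 3.26 (limma adjusted p = 0.026). Rpph1, the RNA of RNase P, fell by 1.36 (SE 0.19, limma adjusted p = 0.014), and Rmrp, the RNA of the related RNase MRP, by 0.73 (limma adjusted p = 0.038).

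The genes of the protein partners are given for comparison, against 3.38% of all genes called in either direction. None of the 4 box C/D core proteins (Fbl, Nop56, Nop58, Snu13) or the 4 H/ACA core proteins (Dkc1, Nhp2, Nop10, Gar1) was called in limma between preservations, and none had a positive difference (medians -0.49 and -0.49). Dkc1, the pseudouridine synthase, had -0.02 (limma adjusted p = 0.96) and Fbl, the methyltransferase, -0.63 (limma adjusted p = 0.13). Of 17 assembly and Cajal body factors, 1 fell, Nop53 (-0.60, limma adjusted p = 0.049), which is also the host of Snord23. None of 26 polymerase I and precursor processing factors, 17 exosome and trimming factors or 20 noncoding host genes tested was called.

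The second comparison was between organs. Brain had the lowest levels of most members. Of 102, 81 were called in brain against the mean of the other organs, 3 higher and 78 lower (limma), against 66.4% of all genes called, 34.7% higher and 31.6% lower. By class, 49 of 58 C/D and 27 of 35 H/ACA genes were lower, with median differences of -1.75 and -1.39. Heart had 35 calls, all higher with the scaling of the deposited values (50.2% of all genes, 21.5% higher), kidney 11 with 2 higher and 9 lower (40.3%, 20.3% and 19.9%), and liver 48 with 45 higher and 3 lower (62.5%, 27.3% and 35.2%). These contrasts share libraries, since the low brain values enter the mean that every other organ is compared with. Without brain, heart had 20 higher and 3 lower, against 3696 and 4077 of all 15819 genes tested. In the same fit, kidney had 0 and 28 (3118 and 2494 genes), and liver 22 and 2 (3755 and 4409 genes). Without liver, heart had 52 and 1 (3233 and 4723 genes). As a share of all reads, the split was 6 higher and 37 lower in brain and 8 and 12 in heart. It was 6 and 2 in kidney and 29 and 4 in liver. On that scaling, of all 15819 genes, 9043 were called higher and 2457 lower in brain, and 1649 and 9317 in heart. Kidney had 3713 and 2093 genes called and liver 2797 and 6501. The median over all genes tested then moved from 0.05 to 0.98 in brain and from -0.19 to -1.03 in heart. Relative to it the members' median was -1.49 in brain, 0.91 in heart, -0.12 in kidney and 0.97 in liver. These values cannot differ between the scalings, since a scaling factor moves all genes of a library alike.

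In heart, markers of other cell types moved too: 3 of 3 erythroid markers summed to 1816 and 1486 CPM in the frozen and FFPE libraries against 21.1 to 179.9 in the other 6, and 3 of 3 endothelial markers to 477 and 419 CPM against 20.5 to 142. The 5 leukocyte markers summed to 78.7 and 24.9 CPM in heart and 2.74 to 34.1 elsewhere. Most of the heart sum was Lyz2, with 67.2 and 16.3 CPM. Ptprc had 11.1 and 7.89 CPM in heart against 11.7 and 13.7 in liver, and Cd3e, Cd79a and S100a8 did not enter the fit. All 3 lists were lowest in brain. Their part in the differences between organs was not tested, and in whole organs fewer cells of a type cannot be told apart from less RNA per cell.

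**Figure D5:**
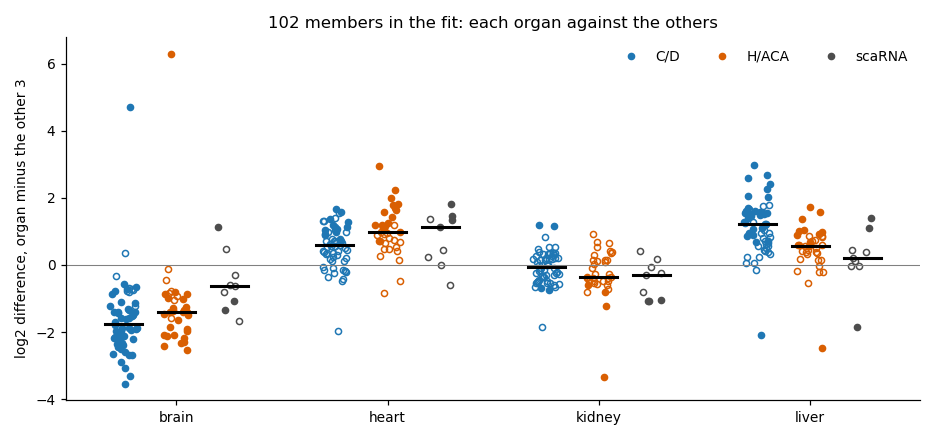
Difference of each organ from the mean of the other 3 (vertical axis, log2) for the 102 members in the fit, C/D in blue, H/ACA in orange and scaRNA in grey, filled where the adjusted p was under 0.05, with bars at the class medians. Most points lie below 0 in brain, where Snora35 (6.29) and Snord64 (4.71) stand alone at the top, at fitted values that depend on the added 0.5 read.

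Against that low level, Snora35 and Snord64 were found almost entirely in brain. Both entered by their brain libraries, so their presence there is part of the rule and is given as a description. Snora35 had 47 reads in frozen and 141 in FFPE brain (1.86 and 7.87 CPM), 3 in FFPE heart and 0 in the other 5 libraries. Against a floor of 3 reads per library, it was at least 6.37-fold higher in frozen brain than in frozen heart, at least 10.6-fold than in kidney and at least 6.47-fold than in liver. In FFPE it was at least 57.9-fold higher than in kidney and at least 38.1-fold than in liver. Its host Htr2c had 1182 and 612 reads in frozen and FFPE brain and 0 to 3 elsewhere.

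Snord64 had 121 reads in frozen and 50 in FFPE brain (4.80 and 2.79 CPM). The frozen heart and liver had 0, and the frozen kidney and the other FFPE libraries 3 to 5. In frozen tissue this is at least 16.4-fold above heart and at least 16.7-fold above liver. Snhg14, the long transcript of the same imprinted region, had 951 and 980 reads in brain and 9 to 51 in the other libraries. Scarna10 was the other member higher in brain, by 1.12 (SE 0.31, limma adjusted p = 0.012), with 6.86 and 10.8 CPM in frozen and FFPE brain, 12.5 and 12.2 in heart, 3.57 and 2.08 in kidney and 2.02 and 1.58 in liver. Its level was highest in heart.

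In liver the largest difference was that of Snord104, a C/D gene. It had 365 and 294 CPM in frozen and FFPE liver, 95.6 and 108 in heart, 77.5 and 42.8 in kidney and 8.80 and 17.4 in brain. Liver stood above and brain below all other libraries, and the liver difference was 2.97 (SE 0.29, limma adjusted p = 4.1e-05). Snord118 (U8), which acts in the maturation of the large subunit ribosomal RNAs, had 208 and 260 CPM in liver, 67.5 and 70.9 in heart, 31.4 and 70.6 in kidney and 8.45 and 39.1 in brain, a liver difference of 2.58 (SE 0.35, limma adjusted p = 0.00029). Snord99 differed by 2.68 in liver, with 35.9 and 55.1 CPM there and at most 13.5 elsewhere. By class, 32 of 58 C/D and 11 of 35 H/ACA genes were higher in liver, or 55.2% and 31.4% against 27.3% of all genes, with medians of 1.20 and 0.56. Snord3b1, a U3 copy, had 2.42 (limma adjusted p = 0.035), resting on 40.1 CPM in frozen liver with FFPE liver lower than it by a difference of -1.62.

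Among the members called in heart, Snora43 had the largest difference. It had 7.31 and 7.73 CPM in frozen and FFPE heart and 0.278 to 1.72 CPM in the other 6 libraries, a difference of 2.95 (SE 0.39, limma adjusted p = 0.00037). It lies close to Snora17 on chromosome 2, which differed by 2.22 (limma adjusted p = 0.0035) with 15.2 and 18.1 CPM in heart, although FFPE liver reached 15.2. Snora2b, Scarna10 and Snora33 followed with 1.99, 1.82 and 1.81. Of the classes, 18 of 35 H/ACA, 13 of 58 C/D and 4 of 9 scaRNA genes were higher in heart on the scaling of the deposited values, or 51.4%, 22.4% and 44.4% against 21.5% of all genes. No test was made between the classes. As a share of all reads 8 members were higher and 12 lower, against 1649 and 9317 of all 15819 genes.

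Against the mean of the other organs, kidney had 2 members higher and 9 lower, with a median difference of -0.16 over members. Without the brain libraries it had 0 higher and 28 lower, against 3118 and 2494 of all 15819 genes, with a median of -0.71 over members. Snord1b and Snord1c, 97.4% identical neighbours in a noncoding host, were the members called higher, by 1.15 (limma adjusted p = 0.017) and 1.20 (limma adjusted p = 0.025). Snora34 was lower by 1.24 (limma adjusted p = 0.00038), with 8.37 and 6.12 CPM in frozen and FFPE kidney against 11.4 to 30.2 elsewhere. Scarna10, highest in heart, was also called lower in kidney, by 1.08. The 9 members called lower in kidney include Snora35, which had 0 reads there and in most other libraries outside brain, so that this call only restates its brain level.

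The differences between organs were set beside the hosts in the same way, with no test between the 2 comparisons. The direction was shared with the host in brain by 24 of 31 H/ACA and 30 of 48 C/D genes, in liver by 25 of 31 and 39 of 48, and in heart and in kidney by 20 of 31 and 28 of 48 each. In the comparison of preservations it was shared by 7 of 31 and 23 of 48. A shared direction also depends on the class medians. H/ACA genes and their hosts had medians of -1.36 and -0.55 in brain, 0.60 and 0.46 in liver, and 1.08 and -0.50 between preservations. The counts thus do not show that single genes follow their host. In liver the Spearman correlation across genes was 0.65 for H/ACA and 0.39 for C/D genes, in heart 0.67 and 0.11, in brain 0.38 and 0.29 and in kidney 0.38 and 0.36, again as descriptions over members that share libraries. Of the 4 C/D core proteins, 2 were called higher in brain, Nop56 by 1.25 and Snu13 by 0.58, and Fbl was higher in liver by 0.85 (limma adjusted p = 0.012). Of the 4 H/ACA core proteins, Nhp2 and Nop10 were called lower in brain, by 0.97 and 0.93, and higher in liver, by 0.66 and 0.72. Over all genes tested, 66.4% were called in brain and 62.5% in liver.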

How the data were processed

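Total RNA of 8 mouse libraries (brain, heart, kidney and liver, frozen or FFPE) was measured. The authors deposited log2 values per gene, named in the file as normalized counts; HISAT2, featureCounts, limma and mm10 stand in the submitters' processing notes without versions, and of the annotation, strand setting and scaling nothing is stated there. Whole reads were recovered from the deposited log2 values (0.5 read added by the authors): all values came out whole within 1e-06, and the implied library sizes were 0.50 to 1.76 times the read totals, so all values carry a scaling factor per library that ratios within a library do not.

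limma 3.58.1 in R 4.3.3 (mean-variance trend; organ and preservation as terms; 3 residual degrees of freedom) was fitted to the 15819 genes above 0 in at least 2 libraries, with Benjamini-Hochberg adjustment over all of them. With 1 library per group, p-values measure the disagreement between organs or preservations, and no label says that libraries came from separate animals. Small RNA models and hosts were taken from GENCODE, with Biopython 1.88 for alignments. Named members were the most abundant of each class, those with the largest differences in each comparison, those next to the threshold, the imprinted ones and those sharing a host. The members and lists were chosen with earlier results of these data known. Alternatives were other scalings, filters, pseudocounts and variance models, voom on the recovered reads, and leaving out organs or libraries; leaving out whole organs in the comparisons of organs was added after the data were seen. Rows without a symbol (1275 of 27179) stayed in the fit. The host gene of 1 member is not reported here.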

Additional observations from a re-analysis of the deposited data

Results flagged for a closer look

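In 30 quantities checked over the 4 organs, 4 had 1 organ far from the other 3 (gap over range above Dixon's critical value, which chance gives in about 1 of 20 groups). Heart had the low difference between FFPE and frozen for Snora20 (0.31, against 2.56 to 2.95), Scarna3a (0.59, against 2.34 to 2.65) and Snora2b (0.88, against 1.66 to 1.79), and brain the high one for Scarna3b (2.37, against 1.28 to 1.38). These values are on the scaling of the deposited values, and the check was not repeated as a share of all reads. That share adds 0.23, 0.74, 0.63 and 0.29 to the differences in brain, heart, kidney and liver. It adds most to heart and least to brain, so each of these 4 gaps is narrower on it.

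Organs moved in opposite directions in several cases, and the difference between organs was not tested in any of them. The C/D median was above 0 in brain (0.68) and below 0 in liver (-0.27), kidney (-0.22) and heart (-0.0894) on the scaling of the deposited values, but above 0 in all 4 as a share of all reads (0.91, 0.02, 0.41 and 0.65 in the same order). Single genes at least 2-fold higher in 1 organ and at least 2-fold lower in another were Snora44 (-1.01 in heart, 1.80 in liver), Snord66 (-1.80 in heart, 1.35 in brain), Snord69 (-1.04 in heart, 1.11 in brain), Scarna2 (-1.10 in liver, 1.33 in heart), Snord47 (-1.54 in kidney, 1.44 in heart), Snora5c (-1.08 in heart, 1.08 in brain), Snord3b1 (-1.62 in liver, 4.17 in brain) and Snord73b (-1.07 in kidney, 1.43 in heart). As a share of all reads all 8 kept opposite signs, but only Snord66 and Snord3b1 were still at least 2-fold in both directions. Each rests on 1 library per organ and preservation.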

How the results depend on the processing

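The count of members called higher in FFPE was 18 and of those called lower 4, with 190 and 345 of all 15819 genes. Other settings gave 11 higher with quantile normalization, where 128 of all genes were higher. The share of all reads gave 44 higher and 2 lower, with 3652 and 73 of all genes. Without a mean-variance trend, 0 members were called higher and 0 lower, and 0 of all genes were called. In that fit 30 and 9 members had an unadjusted p under 0.05, a threshold at which all genes were not counted. On recovered reads, voom called 26 higher and 9 lower, with 572 and 835 of all genes. Leaving out 1 organ gave 0 to 25 higher and 0 to 2 lower, with 1 lower without brain and 2 without heart. Of all genes, 0 to 108 were higher and 0 to 223 lower in these fits. For brain against the other organs (81), the share of all reads gave 43, and leaving out 1 library 43 (without frozen brain) to 85. For heart (35), the share of all reads gave 20, and leaving out 1 library 21 (without frozen heart) to 49. For kidney (11), the fit without a trend gave 7, and leaving out 1 library 3 (without frozen kidney) to 22 (without frozen heart), with 20 without FFPE heart and 5 without FFPE kidney. For liver (48), leaving out 1 library gave 19 (without frozen liver) to 57, with 31 without FFPE liver. The share of all genes called also moved when 1 library was left out. As a share of all reads 72.7% of all genes were called in brain and 69.3% in heart. Without a trend 34.2% were called in kidney. Leaving out a whole other organ, chosen after seeing the data, gave 72 to 83 for brain, 23 (without brain) to 53 (without liver) for heart, 10 to 28 (without brain) for kidney and 24 (without brain) to 66 (without heart) for liver. Of all genes, 59.3% to 68.9% were then called in brain and 49.1% to 50.3% in heart. Kidney had 35.5% to 46.4% and liver 51.6% to 65.1%. The ratio of H/ACA to C/D reads (1.09) was 0.52 without the most abundant member of each class and kept its sign in every alternative run. No named member that was called changed direction under any alternative. No paired analysis by replicate number was possible because each group has 1 library, and organ is already a term of the fit. Counting limits the members near the threshold, where 1 or a few reads decide a difference.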
